A study of Mus musculus with 63 samples.

Results

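Clones that made up more (major) or less (minor) of the same small intestinal tumour were compared by bulk RNA sequencing in 20 heterotypic mouse tumours, that is, tumours with more than 1 Confetti colour or with 1 colour beside unlabelled glands. The comparison used 40 of the 63 libraries of the series, 1 major and 1 minor clone from each tumour, joined by mouse and tumour number. The other 23 libraries were undivided tumours and were not compared here. The tumours came from 2 C57BL/6 mice, 10 from a female and 10 from a male, so mouse and sex cannot be told apart. Both mice carried the genotype labelled Apchet with the Rosa26 Confetti allele, and a tamoxifen-activated Cre driven by the Villin promoter of the intestinal epithelium. Tamoxifen (4 mg) removed 1 Apc allele in that epithelium and switched on Confetti, and the mutagen ENU (200 mg per kg) was given 10 days later. Major and minor clones therefore shared the mouse, the genotype, the treatments and the tumour, and differed in which dissected clone the RNA came from. Female tumour 22 is an exception in its segment labels, SI20 for the major and SI10 for the minor piece, while in the other tumours both clones carried the same segment of the small intestine.

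Most tumours of this kind depend on loss of APC, a protein of the complex that destroys beta-catenin, and so on WNT signalling that keeps cells crypt-like. The intestinal epithelium otherwise renews itself from crypt stem cells whose daughters become absorptive enterocytes or, where ATOH1 is switched on and Notch signalling is low, secretory goblet, Paneth and enteroendocrine cells. Tumours keep some of these cells, and surrounding fibroblasts, muscle, vessels and immune cells enter any dissected piece.

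The values were normalised counts, that is, reads estimated per gene and scaled between libraries by the authors. They summed to 26140200 to 37617400 per library (median 30637000), and how many reads were sequenced is hidden by the scaling. Epithelial genes were high in every library. Over Epcam, Cdh1, Vil1, Cdx1, Cdx2, Krt8, Krt18 and Krt19 the lowest value in any of the 40 libraries was 574, none of the 8 passed the test between clones, and their log2 fold changes lay between 0.06 and 0.44.

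The Confetti transcripts differed between the clones of most tumours. Confetti makes a labelled cell and its descendants express 1 of 4 fluorescent proteins, and the clones were dissected by that colour. The reporter that differed most between the paired clones did so by a median of 3.42 on the log2(value + 1) scale (1.98 to 5.33), and it was the higher in the minor clone in 14 of 20 tumours. It was chosen by ratio and was not always a leading reporter. In tumour 19 of the female mouse it was mCerulean (378 in the major and 57.1 in the minor clone), though EYFP led in both. In tumour 19 of the male mouse it was mCerulean (328 and 15.8), though hrGFP led in the major and EYFP in the minor clone. In tumour 30 of the female mouse, tdimer2 stood at 591 in the major and 23732 in the minor clone. In tumour 27 of the male mouse, the major clone had 6387 of mCerulean and 676 of EYFP, and the minor clone 355 and 8758. A reporter of at least 2000, a level chosen after the values were seen, was present in all 20 minor clones and in 11 of 20 major clones. The leading reporter differed between the clones in 17 of 20 tumours. It was the same in female tumours 19 (EYFP, 916 in the major and 3919 in the minor clone), 22 (EYFP, 766 and 6126) and 24 (tdimer2, 753 and 3681), whose major clones had no reporter of 2000.

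**Figure D1:**
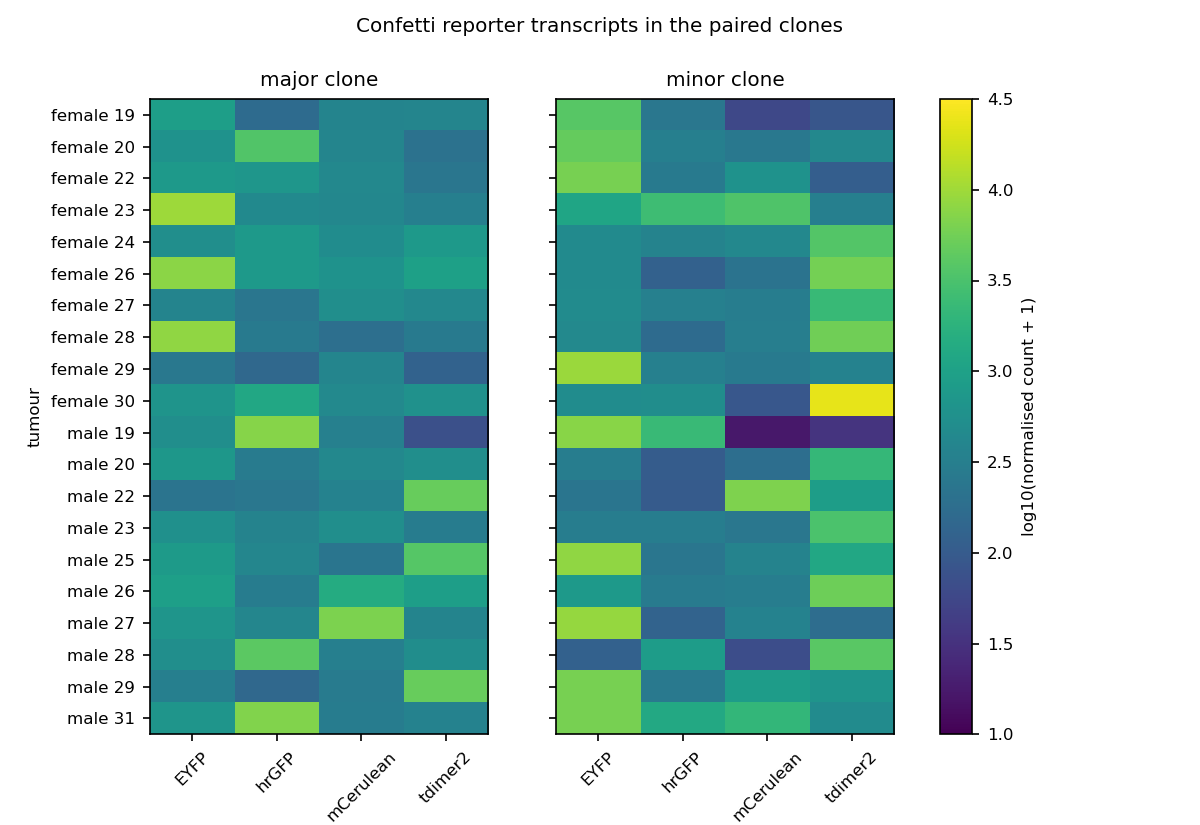
Normalised counts of the 4 Confetti reporter transcripts (columns) in the major clone (left) and minor clone (right) of each of the 20 tumours (rows), coloured by log10(normalised count + 1). The 20 minor clones each have a reporter of at least 2000, and 11 of the 20 major clones do.

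Across the transcriptome, 188 of 16428 genes passed the test for a difference between the paired clones, which is 1.14% of the genes tested. Of these, 110 were higher in major clones (0.67%) and 78 were lower (0.475%). The test was limma on log2(value + 1) of genes with a mean of at least 10, with each tumour as a block, and a Benjamini-Hochberg adjusted p under 0.05 over all genes. All fold changes below are major against minor on that scale, which understates changes of genes with low values. The differences were mostly small: 15 of the 110 and 18 of the 78 reached 1 on the log2 scale, and the median over all genes tested was 0.01. All 188 pointed the same way in both mice, and 95 of the 110 and 67 of the 78 did so in at least 16 of 20 tumours. These genes were chosen by a test on the same tumours and mice, so their agreement is a description and not a replication. Over all 16428 genes tested, 12591 had the direction of the paired fit in the female mouse and 14169 in the male mouse. Of all genes tested, 1047 pointed 1 way in at least 16 of 20 tumours. With libraries brought to an equal sum after removal of Rn18s, 601 genes passed and 27.6% of them were higher in major clones, and with quantile normalization 366 passed and 38.5% were higher, against 58.5% here.

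Ribosomal RNA differed between the clones, and its level was fitted as a covariate. Rn18s, the 18S RNA of the small ribosomal subunit, has no poly(A) tail, and the libraries were made from polyadenylated RNA. It took 0.555% to 13.1% of the normalised counts in major clones (median 1.24%) and 1.03% to 15.6% in minor clones (median 6.19%). The ranges overlapped, and the share was higher in the major clone in 5 of 20 tumours. The mean log2 difference in the share was -1.47 (SD 1.47, n = 20 tumours, two-sided permutation test that exchanged the 2 clones of a tumour at random, p = 0.00048). It was -1.85 in the male mouse (higher in 1 of 10 major clones, permutation test, p = 0.00403) and -1.09 in the female mouse (4 of 10, permutation test, p = 0.0803). With the Rn18s level as a covariate, 1 of 16427 genes, Hpd, passed (0.00609%), with 1497 at an unadjusted p under 0.05. The standard errors of the called genes widened in that fit by a median of 1.40 (higher genes) and 1.35 times (lower genes).

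Fitting Rn18s left the sizes of the higher genes near where they were and reduced those of the lower genes. All 110 genes that were higher in major clones kept their direction, 108 had an unadjusted p under 0.05, and their median log2 fold change was 0.52 without and 0.51 with the Rn18s term. In the 5 tumours whose Rn18s share was higher in the major clone, all 110 were again higher in the major clone on average, by a median of 0.50. For 77 genes lower in major clones (Rn18s itself cannot be fitted) the median went from -0.48 to -0.31, 75 kept their direction, 45 had an unadjusted p under 0.05, and 21 kept less than 0.5 of their size. In the same 5 tumours 64 of the 78 were lower in the major clone, with a median of -0.22. These 5 tumours were also used in the test that chose the genes, so their values are a description.

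**Figure D2:**
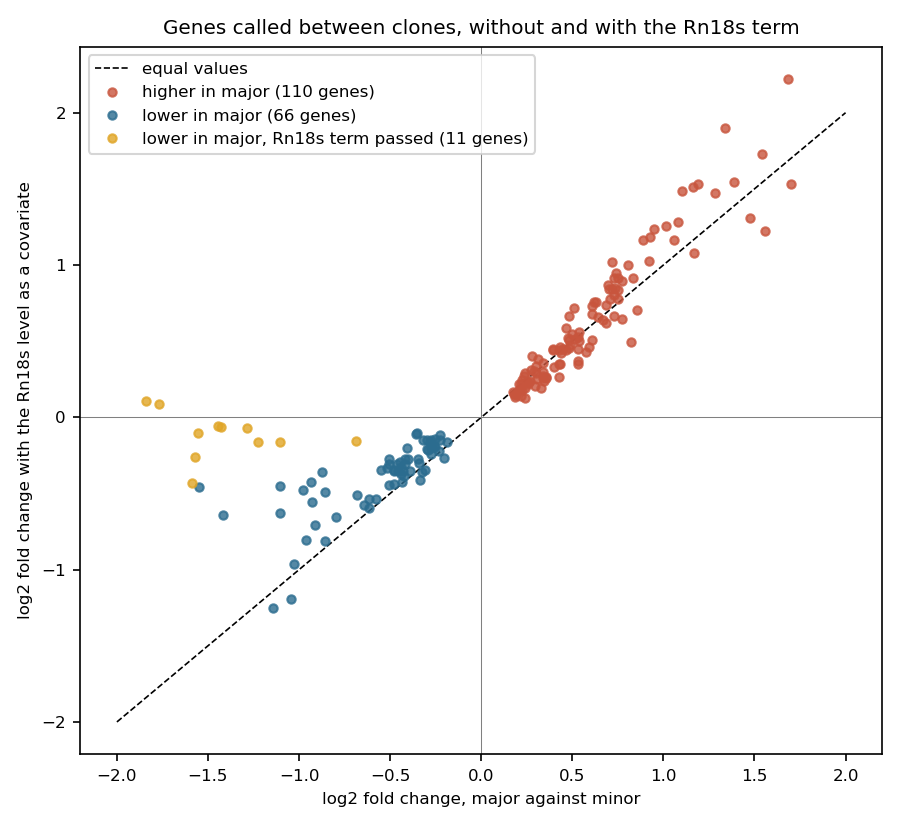
Log2 fold change of the called genes without (x axis) and with (y axis) the Rn18s level as a covariate, 1 point per gene. The 110 genes higher in major clones lie along the dashed line of equal values, and 11 of the genes lower in major clones, in yellow, lie above that line, nearer to 0, and had a Rn18s term that passed.

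Hpd, which encodes an enzyme of tyrosine breakdown, gave the smallest p of all genes. It ranged from 74.3 to 367 in major clones (median 155) and from 30.3 to 168 in minor clones (median 96.4). It was higher in the major clone in 20 of 20 tumours although the ranges overlapped between tumours. Its log2 fold change was 0.83 (SE 0.10, limma adjusted p = 0.000183), and 0.91 with the Rn18s term (SE 0.13, limma adjusted p = 0.0122). Deptor, an inhibitor of the mTOR kinase, ranged from 525 to 2081 in major (median 1203) and 298 to 1913 in minor clones (median 925). The major clone had more in 19 of 20 tumours, and the log2 fold change was 0.45 (SE 0.07, limma adjusted p = 0.00548). Gata6, a transcription factor of the intestinal epithelium, ranged from 1715 to 3328 in major (median 2650) and from 1423 to 2973 in minor clones (median 2097). It was above its minor clone in 19 of 20 tumours, by 0.29 (SE 0.04, limma adjusted p = 0.00573). All 3 stayed called whichever tumour was left out, and so did the other 12 genes named in the next paragraph. Calls nearer the threshold did not: of the 20 fits that each left out 1 tumour, Neurog3 was called in 8, Dll4 in 7, and Clca1, Sis, Enpep and Vwa5b2 in 6.

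The other genes with the smallest p among those higher in major clones were Baiap2l2, a protein of membrane protrusions such as microvilli (log2 fold change 0.64), Elapor1, a protein of the endosomes and lysosomes of secretory cells (0.71), Mgat5, a branching enzyme of N-glycans (0.35), A4gnt (1.56), Afmid, an enzyme of tryptophan breakdown (0.50), BC049987 (1.70), Selenom, a selenoprotein of the endoplasmic reticulum (0.61), Mapre2, a protein of microtubule ends (0.31), Chgb (0.89), Atoh1 (0.69), Klk1 (0.73) and Tpsg1 (0.67). Their limma adjusted p lay between 0.0158 and 0.0207, and each was higher in 16 to 19 of 20 tumours. BC049987 had a mean of 21.98 in major and 6.93 in minor clones. It met the mean required for testing only through the major clones. Atoh1, Chgb, Klk1, Tpsg1 and A4gnt are genes of secretory cells and are taken up by list.

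Over all genes tested, 2029 (12.4%) had an unadjusted p under 0.05 with a positive sign and 1650 (10.0%) with a negative sign, against which the counts of each list are to be read. Of the 188 called genes, 38 were in at least 1 of the 47 lists, so a list without a call does not cover all genes of its kind. Of 18 secretory lineage transcription factors tested, 3 passed and all 3 were higher, 15 had a positive log2 fold change, and the list's median was 0.26 (0.46 with the Rn18s term). Atoh1, the factor that sets the secretory fate, ranged from 122 to 331 in major clones (median 223) and from 51.8 to 244 in minor clones (median 143). Neurog3, which starts the enteroendocrine lineage, ranged from 2.81 to 36.8 (median 14.3) and from 1.43 to 22.3 (median 8.05). It was higher in the major clone in 15 of 20 tumours, by 0.92 (SE 0.22, limma adjusted p = 0.0438). Its mean was 16.3 in major and 8.90 in minor clones, so the required mean of 10 was met only through the major clones. Creb3l1, a membrane-bound factor of secretory capacity, was higher in 15 of 20, by 0.43 (SE 0.10, limma adjusted p = 0.0388). Gfi1, which acts after Atoh1, had 0.61 and an adjusted p of 0.0792 in limma.

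Goblet cells make the mucus of the gut. Of 28 goblet cell genes tested, 5 were called, all higher in major clones, 25 had a positive log2 fold change and 20 had an unadjusted p under 0.05 with a positive sign. The list's median was 0.42, 0.54 with the Rn18s term and 0.51 with the level of fibroblast genes as a covariate, against a median of 0.01 over all genes tested, of which 8505 of 16428 were positive. The list's mean log2 difference was above 0 in 18 of 20 tumours. Spink4, a small secreted protease inhibitor, ranged from 3278 to 20400 in major clones (median 11301) and from 775 to 17904 in minor clones (median 8199). The groups overlapped, yet the major clone was higher in 17 of 20 tumours, by 0.63 (SE 0.12, limma adjusted p = 0.0238). Clca1, a secreted mucus protein, ranged from 1030 to 14948 (median 5302) in major and 1245 to 10133 (median 3096) in minor clones. The major clone led in 17 of 20 tumours, by 0.70 (SE 0.17, limma adjusted p = 0.0465). Klk1, a kallikrein protease, and Tpsg1, a tryptase, were higher in 17 and 18 of 20 tumours. The remaining call was Creb3l1, which is also counted among the transcription factors above, so the lists overlap by this gene.

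Of 30 enzymes tested that add sugars to mucins, 2 were called, both higher in major clones, 25 were positive, and the median was 0.18 (0.14 with the Rn18s term). A4gnt, which caps gastric-type mucin glycans with N-acetylglucosamine, ranged from 8.62 to 286 in major clones (median 83.6) and from 0 to 214 in minor clones (median 41.3). The major clone had more in 17 of 20 tumours, by 1.56 (SE 0.28, limma adjusted p = 0.0197), with 1.22 under the Rn18s term. Galnt5, which starts O-glycans, was higher in 18 of 20, by 0.75 (SE 0.17, limma adjusted p = 0.0377). A4gnt was also the sole called gene among 13 gastric gland genes tested, of which 4 were positive. The median of these 13 was -0.30, and 0.27 with the Rn18s term. Gkn1 and Gkn2, which encode stomach secretory proteins, had log2 fold changes of -1.11 and -1.32 with adjusted p of 0.113 and 0.145 in limma.

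Enteroendocrine cells are the hormone cells of the gut. Of 35 of their genes tested, 4 were called, all higher in major clones, and 32 were positive. The list's median was 0.46, and 0.72 with the Rn18s term, and its mean was above 0 in 15 of 20 tumours. Chgb, a granin of secretory granules, ranged from 967 to 3529 in major clones (median 1882) and from 262 to 2802 in minor clones (median 1028). It was higher in 17 of 20 tumours, by 0.89 (SE 0.17, limma adjusted p = 0.0207). Tph1, the enzyme that starts serotonin synthesis, ranged from 95.8 to 353 (median 248) and from 70.9 to 302 (median 121), and was higher in 17 of 20, by 0.72 (SE 0.15, limma adjusted p = 0.0334). Vwa5b2 (1.68) and Ptprn2, a granule membrane protein (0.51), were the other 2. Vwa5b2 had a mean of 16.5 in major and 6.11 in minor clones. It met the required mean of 10 only through the major clones. Chga, the other granin, had 0.76 (SE 0.19, higher in 15 of 20) and an adjusted p of 0.0517 in limma.

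Paneth cells secrete antimicrobial proteins and tuft cells sense the gut contents. Of 23 Paneth cell genes 1 was called, Reg4, a secreted lectin that other secretory cells also make, at 1588 to 6662 in major clones (median 4183) and 525 to 7386 in minor clones (median 2463). Its log2 fold change was 0.74 (SE 0.15, higher in 17 of 20, limma adjusted p = 0.023). The list's median was 0.38, but its mean was above 0 in 11 of 20 tumours, and tumours ranged from -0.92 to 1.58. Lyz1, the lysozyme of Paneth cells, had 0.19 (SE 0.19, limma adjusted p = 0.567). Of 21 tuft cell genes 0 were called by limma, 2 had an unadjusted p under 0.05, and the median was 0.06.

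**Figure D3:**
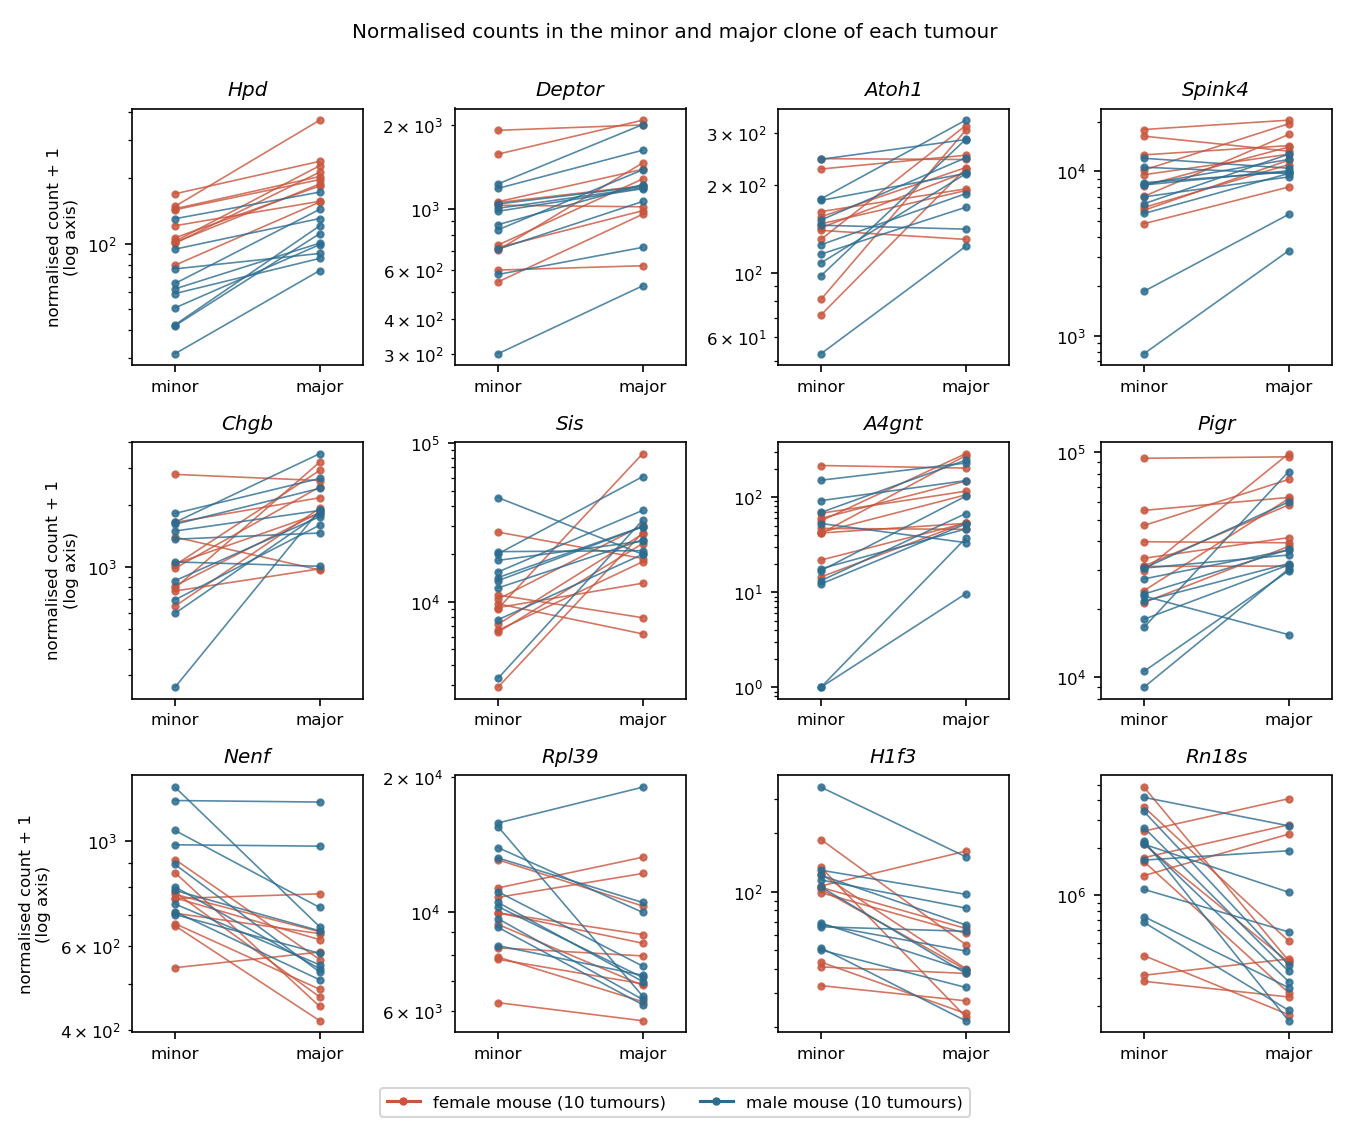
Normalised count + 1 (log axis) of 12 genes in the minor and major clone of each tumour, joined by a line and coloured by mouse. Lines of Hpd run upward in 20 of 20 tumours, those of Chgb in 17, and those of Nenf, H1f3 and Rn18s downward in 18, 19 and 15.

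Absorptive enterocytes were measured too, and all 42 of their genes had a positive log2 fold change. Of these, 3 were called, 32 had an unadjusted p under 0.05, and the median was 0.44 (0.55 with the Rn18s term and 0.56 with the fibroblast term). The list's mean was above 0 in 15 of 20 tumours. Sis, the sucrase-isomaltase of the brush border, ranged from 6256 to 85446 in major clones (median 24250) and from 2884 to 45182 in minor clones (median 10673). It was higher in 16 of 20 tumours, by 1.10 (SE 0.26, limma adjusted p = 0.0439). Enpep, a brush border peptidase, was higher in 15 of 20, by 0.95 (SE 0.23, limma adjusted p = 0.0444), and Papss2, which makes the sulphate donor, in 16 of 20, by 0.49 (SE 0.11, limma adjusted p = 0.0352). Slc5a1, the glucose transporter, had 0.91 and an adjusted p of 0.0517 in limma.

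Other epithelial lists had 1 call or none. Of 14 genes of the proximal small intestine, 1 was called (Gata6), 12 were positive and the median was 0.37, and of 12 distal genes 0 were called by limma, 3 had an unadjusted p under 0.05 and the median was 0.40. Pigr, the receptor that carries antibodies across the epithelium, was the sole call among 25 defence genes, at 15413 to 98151 in major clones (median 38718) and 8998 to 93623 in minor clones (median 28457). Its level was greater in 18 of 20 major clones, by 0.73 (SE 0.15, limma adjusted p = 0.0291). The median of the defence list was 0.35, and 0.14 with the Rn18s term. Of 13 genes encoded by the mitochondrial genome, 12 were positive and 9 had an unadjusted p under 0.05, with a median of 0.39 and 0 calls by limma, while 79 nuclear genes of oxidative phosphorylation had a median of 0.00 and 0 calls, with 6 at an unadjusted p under 0.05. Of 25 folding genes of the endoplasmic reticulum 0 were called by limma, 23 were positive, 8 had a positive sign and an unadjusted p under 0.05, and the median was 0.10. Called genes of the endoplasmic reticulum outside this list included Sec31a, Os9 and Prkcsh, each higher in major clones. Dhcr7, the last enzyme of cholesterol synthesis, was the sole call of 23 in that pathway (0.23, limma adjusted p = 0.0377).

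**Figure D4:**
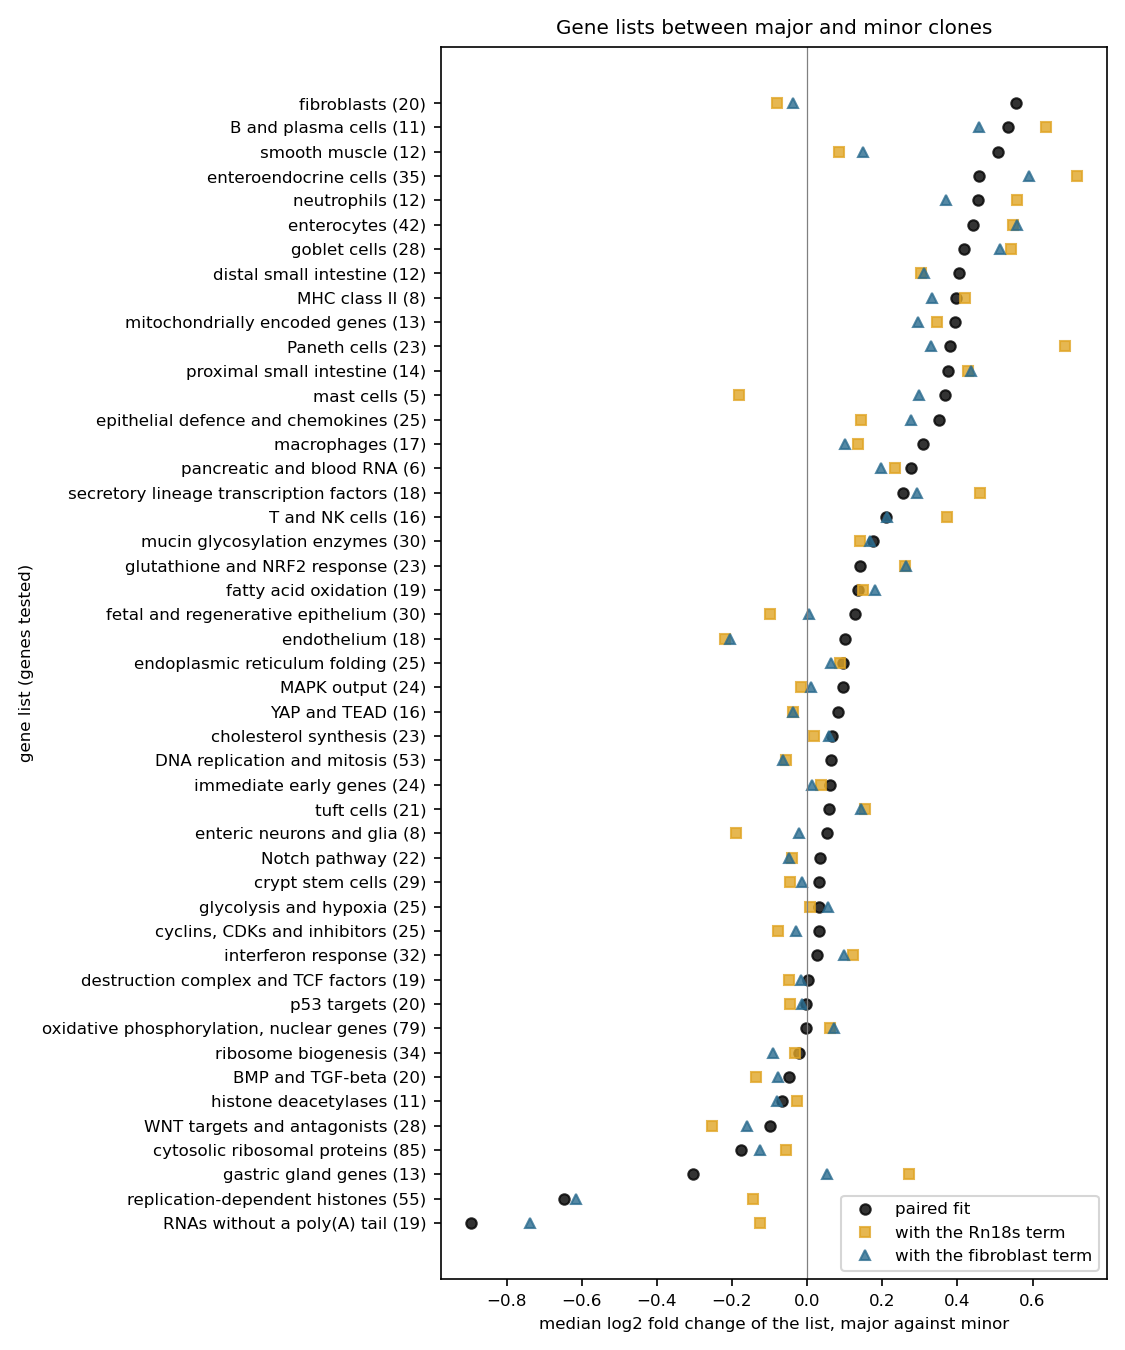
Median log2 fold change (x axis) of each gene list (y axis, genes tested in brackets) in the paired fit (circles), with the Rn18s level as a covariate (squares) and with the level of fibroblast genes as a covariate (triangles). Enteroendocrine, enterocyte and goblet lists lie between 0.42 and 0.46 in the paired fit and above that with either term, while fibroblasts move from 0.56 to -0.08 with the Rn18s level. The fibroblast term is the mean of these same fibroblast genes, so their value near 0 with it (-0.04) was set in advance.

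Stem cell, WNT, proliferation and signalling genes gave few calls. None (0) of 29 crypt stem cell genes was called by limma (1 had an unadjusted p under 0.05), and the median was 0.03 (-0.04 with the Rn18s term). Lgr5, the stem cell receptor, ranged from 249 to 2818 in major clones (median 872) and from 443 to 2925 in minor clones (median 850), with a log2 fold change of 0.02 (SE 0.15, limma adjusted p = 0.963), which turned to -0.25 with the Rn18s term. Of 28 WNT targets and antagonists 0 were called by limma, 7 were positive and 2 had an unadjusted p under 0.05. The median was -0.10, and -0.25 with the Rn18s term. Notum, a secreted WNT antagonist, had -0.22 (SE 0.19, limma adjusted p = 0.506), and -0.54 with the Rn18s term (SE 0.24, limma adjusted p = 0.513). The 19 genes of the destruction complex and TCF factors had 0 calls by limma, 2 at an unadjusted p under 0.05 and a median of 0.00, and Apc itself had 0.13 (SE 0.14, limma adjusted p = 0.615). Dll4, a Notch ligand, was the sole call of 22 Notch genes, at 123 to 305 in major clones (median 196) and 56.1 to 228 in minor clones (median 124), a log2 fold change of 0.58 (SE 0.14, higher in 16 of 20, limma adjusted p = 0.0444). Lfng, which modifies Notch receptors, had -0.43 and an adjusted p of 0.0501 in limma.

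Of 53 genes of DNA replication and mitosis 0 were called by limma (5 had an unadjusted p under 0.05). The median was 0.06, and -0.06 with the Rn18s term. Among 25 cyclins, kinases and inhibitors Rb1, a brake on entry into S phase, was called (0.30, SE 0.07, higher in 16 of 20, limma adjusted p = 0.0417). Cdk4 had -0.24 (SE 0.07, limma adjusted p = 0.0725) and Hdac2 -0.20 (SE 0.07, limma adjusted p = 0.0887). With the Rn18s term Cdk4 had -0.12 and Hdac2 -0.16. Myc had -0.13 (SE 0.11, limma adjusted p = 0.48). MAPK output (24 genes), immediate early genes (24), p53 targets (20), YAP and TEAD genes (16), BMP and TGF-beta genes (20), fetal and regenerative genes (30) and interferon genes (32) each had 0 calls by limma, with 2, 5, 3, 5, 4, 3 and 0 genes at an unadjusted p under 0.05 and medians of 0.10, 0.06, 0.00, 0.08, -0.05, 0.13 and 0.03. With the Rn18s term the medians of these lists were, in the same order, -0.02, 0.04, -0.05, -0.04, -0.14, -0.10 and 0.12. Anxa1, a marker of regenerative epithelium, had 0.00 (SE 0.08, limma adjusted p = 0.985). Histone deacetylases (11 genes), glycolysis and hypoxia (25), fatty acid oxidation (19) and glutathione and NRF2 genes (23) also had 0 calls by limma, with 1, 5, 5 and 6 genes at an unadjusted p under 0.05 and medians of -0.07, 0.03, 0.14 and 0.14.

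None of the lists of cells around the epithelium had a called gene, but the lists do not hold every gene of such cells. Called outside them were, for example, Igkv16-104, an immunoglobulin gene (log2 fold change 1.28, higher in 17 of 20, limma adjusted p = 0.0368). C1ra, a complement gene, was another (0.82, higher in 18 of 20, limma adjusted p = 0.0266, and 0.51 with the fibroblast term). Both were named after their values were seen. In bulk RNA, more cells of a type and more RNA per cell cannot be told apart. The 20 fibroblast genes had 0 calls by limma, 13 with a positive sign and an unadjusted p under 0.05, and a median of 0.56. Their mean was above 0 in 14 of 20 tumours and reached 2.40 in a single tumour. The median was 0.13 in the female and 1.03 in the male mouse, and it was -0.08 with the Rn18s term. Their summed level overlapped between classes, at 9764 to 46666 in major (median 28056) and 13504 to 45244 in minor clones (median 23663). Lum, a matrix proteoglycan, was higher in 17 of 20 tumours, by 1.03 with an adjusted p of 0.0621 in limma.

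Smooth muscle (12 genes) had a median of 0.51, endothelium (18) 0.10, enteric neurons and glia (8) 0.05, macrophages (17) 0.31, neutrophils (12) 0.45, B and plasma cells (11) 0.53, T and NK cells (16) 0.21, mast cells (5) 0.37 and MHC class II genes (8) 0.40. Each had 0 calls by limma, and 8, 3, 1, 9, 6, 8, 0, 0 and 7 of their genes had a positive sign and an unadjusted p under 0.05. A negative sign with such a p was found for 1 smooth muscle gene and 3 endothelial genes. With the Rn18s term the medians of these lists were, in the same order, 0.09, -0.22, -0.19, 0.14, 0.56, 0.63, 0.37, -0.18 and 0.42. The mean of the endothelial list, as that of T and NK cells, was above 0 in 10 of 20 tumours. Genes of blood and pancreas (6) had a median of 0.28, 0 calls by limma and 2 genes at an unadjusted p under 0.05. With the level of fibroblast genes as a covariate, 7 genes passed between the clones, 6 of them among the 188. The medians of goblet, enteroendocrine and enterocyte genes under that term were 0.51, 0.59 and 0.56. The part of stroma in the epithelial results was not tested beyond these values.

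Among named genes lower in major clones, the 15 with the smallest p began with Nenf, a secreted protein that binds haem. Nenf ranged from 418 to 1207 in major clones (median 581) and from 540 to 1297 in minor clones (median 775). Major clones had less in 18 of 20 tumours, and the log2 fold change was -0.42 (SE 0.07, limma adjusted p = 0.0197), and -0.30 with the Rn18s term. Raver2, an RNA-binding protein, ranged from 5.48 to 36.4 in major clones (median 18.8) and from 10.0 to 108 in minor clones (median 39.1). Major clones had less in 18 of 20 tumours (log2 fold change -1.14, SE 0.23, limma adjusted p = 0.0271), and -1.25 with the Rn18s term. Nradd, a membrane protein with a death domain (-0.93), Bag2, a co-chaperone (-0.48), Grb14, an adaptor of the insulin receptor (-0.64), Fam117a (-0.45), 2700046A07Rik (-1.03), H2aw, a histone (-0.44) and Gm7514 (-0.80) kept -0.56, -0.43, -0.57, -0.29, -0.96, -0.37 and -0.65 with that term.

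Replication-dependent histone genes, whose mRNAs end in a stem-loop in place of a poly(A) tail, were called in part. Of 55 tested, 9 were called, all lower, 36 had a negative sign and an unadjusted p under 0.05, and 3 were positive. The median was -0.65, and -0.15 with the Rn18s term. H1f3, a linker histone, ranged from 20.5 to 161 in major clones (median 43.7) and from 31.7 to 346 in minor clones (median 103). It was lower in 19 of 20 tumours (log2 fold change -0.86, SE 0.16, limma adjusted p = 0.0197), and -0.49 with the Rn18s term. H4c1, a core histone, was lower in 19 of 20 tumours (log2 fold change -1.42, SE 0.28, limma adjusted p = 0.0259), and -0.64 with that term. Near-identical copies of these genes can share reads, so values of single histones are uncertain. DNA replication genes, as given above, had a median of 0.06, and -0.06 with the Rn18s term.

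Of 19 RNAs tested that carry no poly(A) tail, 7 were called, all lower in major clones, and 0 of the 19 had a positive log2 fold change. Rn18s itself is 1 of the 7 and was left out of the fit with its own term. The list overlaps the histones by H1f3, H1f5, H4c4 and H4c8, and its median of -0.89 became -0.13 with the Rn18s term. These histones were all called, against 9 of the 55 histones tested, and with Rn18s, Rmrp and Snora73a they make up the 7. The members were chosen with earlier results of these data known, so the count of 7 is a description and not evidence about such RNAs. Rmrp, the RNA of a ribosomal RNA processing enzyme, ranged from 12 to 888 in major clones (median 36.6) and from 28.4 to 1129 in minor clones (median 353). It was lower in 15 of 20 tumours (log2 fold change -1.77, SE 0.43, limma adjusted p = 0.0455), and 0.09 with the Rn18s term. Snora73a, which guides ribosomal RNA modification, was lower in 17 of 20 tumours (log2 fold change -1.57), and -0.26 with that term. Snora73a had a mean of 7.74 in major and 17.7 in minor clones. It met the mean required for testing only through the minor clones.

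The Rn18s term itself passed for 34 of 16427 genes (0.207%), 28 of which rose with Rn18s, and 11 of the 34 were among the genes lower in major clones. Besides Rmrp, Snora73a, H4c4 and H4c8 these were Mir6236, Lars2, Gm12895, Gm15564, AA474408 and 2 genes that the table lists by identifier alone, Rn7sk and Gm55936 in Gencode M39. Rn7sk, the 7SK RNA that holds back transcription elongation and has no poly(A) tail, ranged from 106 to 4534 in major clones (median 173) and from 118 to 6017 in minor clones (median 1747). Major clones had less in 14 of 20 tumours (log2 fold change -1.84, SE 0.44, limma adjusted p = 0.0438), and the value was 0.11 with the Rn18s term. It is missing from the 19 RNAs above because they were matched by symbol, and was named after its values were seen. Lars2, the leucyl-tRNA synthetase of mitochondria, ranged from 14261 to 271266 in major clones (median 28308) and from 21941 to 415832 in minor clones (median 137400). Its log2 fold change of -1.45 (SE 0.31, limma adjusted p = 0.0334) became -0.06 with the Rn18s term, and it changed by 0.95 on the log2 scale for each log2 unit of Rn18s. Transcripts of Lars2 shared 26 stretches of 31 bases with those of AA474408 and 25 with those of Gm15564 in Gencode M39, so the counts of these 3 genes are uncertain. Lars2, Gm15564, AA474408, Gm12895 and Mir6236 were compared with each other and not with ribosomal RNA, so sequence shared with it was not tested.

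Mir6236 is annotated as a microRNA gene on chromosome 9 of GRCm39 from 110110355 to 110110477, plus strand. It ranged from 1213 to 30319 in major clones (median 2707) and from 3844 to 48425 in minor clones (median 14178), with a log2 fold change of -1.59 (SE 0.29, lower in 17 of 20, limma adjusted p = 0.0197) that became -0.43 with the Rn18s term. These counts are reads on the gene and not a measure of the mature microRNA, and they changed by 0.79 on the log2 scale for each log2 unit of Rn18s. The mature RNA is shown because the gene had the second smallest p among those lower in major clones. RefSeq places it at chr9:110281353-110281371 of GRCm38.p6, plus strand, with its 19 bases written 5′ to 3′ and the seed in capitals.
mmu-miR-6236: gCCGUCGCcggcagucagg

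Of 85 ribosomal protein genes tested, 3 were called, all lower, 82 were negative and 61 had a negative sign and an unadjusted p under 0.05, with a median of -0.18. The list's mean was below 0 in 16 of 20 tumours. Rpl39, of the large subunit, ranged from 5697 to 19016 in major clones (median 7378) and from 6254 to 15808 in minor clones (median 10107). It was lower in 17 of 20 tumours (log2 fold change -0.32, SE 0.08, limma adjusted p = 0.0438), and Rps20 and Rps21, of the small subunit, had -0.25 and -0.30. The list's median was -0.04 in the female mouse and -0.30 in the male mouse, a difference that was not tested for the list, and -0.06 with the Rn18s term. Ribosomal proteins have many near-identical pseudogenes that can take reads. Of 34 genes of ribosome assembly 1 was called, Polr1c, a subunit of the polymerases that make ribosomal RNA and small RNAs, which was lower (-0.28, SE 0.07, limma adjusted p = 0.0438), and the median was -0.02.

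**Figure D5:**
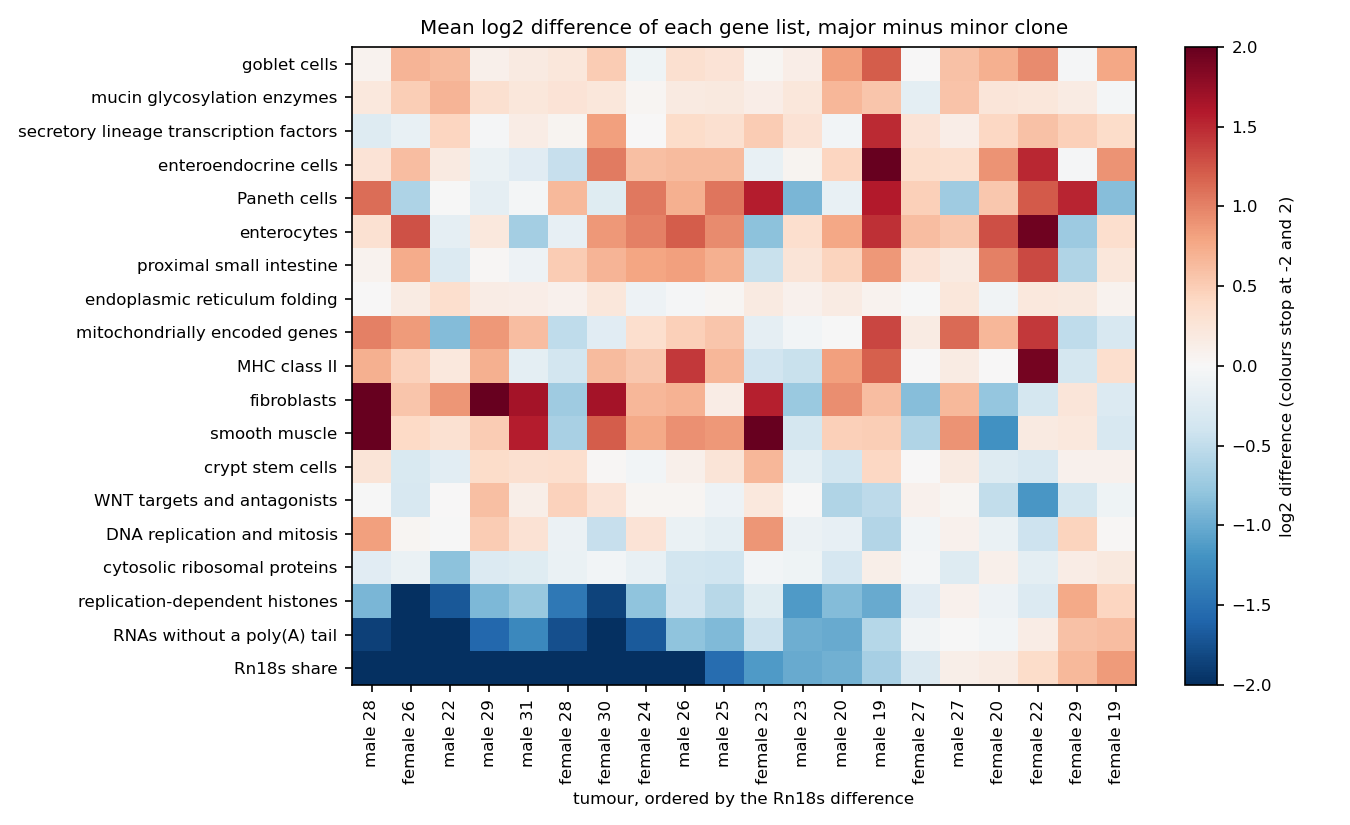
Mean log2 difference (major minus minor, colour) of 18 gene lists and of the Rn18s share (rows) in each of the 20 tumours (columns, ordered by the Rn18s difference). Histones and RNAs without a poly(A) tail are below 0 in 17 of 20 tumours, while goblet cell genes are above 0 in 18 of 20.

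Tumours differed in how much their clones were apart. The median absolute log2 difference over all genes tested lay between 0.25, in tumour 23 of the male mouse, and 0.43, in tumour 28 of the male mouse. Of the 110 genes higher in major clones, between 66 (tumour 23 of the female mouse) and 109 (tumour 22 of the female and tumour 25 of the male mouse) were higher in the major clone of a given tumour. Of the 78 lower genes, between 20 (tumour 19 of the female mouse) and 78 (tumour 26 of the female mouse) were lower. In tumour 19 of the female mouse Rn18s took 7.49% of the major and 4.16% of the minor clone. In tumour 26 it took 1.23% and 15.6%. A test of whether the clone difference itself differed between the mice gave 0 genes by limma, with 1257 at an unadjusted p under 0.05. Without tumour 22 of the female mouse, whose clones carried different segment labels, 42 genes passed, all 42 of them among the 188, and 27 were higher in major clones. In that tumour enterocyte genes were 1.95 higher in the major clone on average, the highest of the 20.

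Start sites of the called genes were searched for short motifs. RefSeq promoters of GRCm38.p6 (250 bases before to 50 after the start, 1 per gene) matched 11634 of the genes tested, 82 of those higher and 57 of those lower in major clones. The GATA letters AGATAA or TGATAA, on either strand, were in 19.5% of promoters of the higher genes, 8.77% of the lower genes and 11.1% of all. The E-box letters CAGCTG or CAGATG, which ATOH1 and related factors can bind, were in 30.5%, 14.0% and 25.2%. The E-box CACGTG was in 11%, 3.51% and 9.79%, TGACGTCA, the cyclic AMP element, in 2.44%, 5.26% and 3.03%, and TGACGTGG, CAAAGTCCA and CTTTGATC were each in 1.22%, 0.0% and less than 1% of all. No test was made of these shares. Shown are the 120 bases before the start of Hpd (chr5:123182724-123182843, minus strand), the gene with the smallest p, of Reg4 (chr3:98222036-98222155, plus strand) and of Chgb (chr2:132781522-132781641, plus strand), 5′ to 3′ in the direction of the gene, with matches in capitals. The match is a GATA motif in Hpd and Reg4 and a cyclic AMP element in Chgb. The 3 were printed because they hold a match: in the same window A4gnt, Atoh1, Klk1 and Tph1, which were read too, held none of these motifs.
Hpd: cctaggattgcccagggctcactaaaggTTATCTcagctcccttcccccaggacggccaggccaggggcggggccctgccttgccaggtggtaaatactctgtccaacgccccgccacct
Reg4: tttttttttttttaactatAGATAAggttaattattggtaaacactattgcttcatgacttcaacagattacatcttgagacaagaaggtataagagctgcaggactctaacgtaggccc
Chgb: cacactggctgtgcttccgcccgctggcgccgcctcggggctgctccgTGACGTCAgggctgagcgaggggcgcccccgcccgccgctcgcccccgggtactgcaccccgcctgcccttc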

How the data were processed

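Libraries were made by the authors from polyadenylated RNA of dissected clones (RINe above the study's limit) by a stranded method with paired-end reads. Per the labels' processing notes and the methods, reads were trimmed with Trimmomatic 0.39, checked with FastQC 0.11.9, STAR 2.7.7a and Picard 2.27.3, and quantified per gene with Salmon 1.9.0 against Gencode on GRCm39. Deposited per gene was a signal called the normalised count, made by the authors with DESeq2; values are not whole, and whole reads could not be recovered. The labels do not state which clone is major; the class follows the clone letters that the study names as major and minor.

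Here, limma 3.58.1 (eBayes with trend, R 4.3.3) was fitted to log2(value + 1) of genes with a mean of at least 10, with the tumour as a block. The pairing comes from the tumour numbers: clones of a tumour correlated at a median of 0.265 after removal of class means (-0.0198 between tumours). Lists were described by counts and medians. Members, lists and tests were chosen with earlier results of these data known. Named genes were the 15 with the smallest p in each direction, for each list up to 4 members with the smallest p and those called, Rn18s, the reporters, and Atoh1, Chga, Hdac2, Cdk4, Lgr5, Anxa1, Notum, Lyz1, Myc and Apc; not all of them are printed. The fit was tested on simulated data. Both clones of each tumour share the tumour and only 2 mice were used, so p-values measure the spread between tumours. Other settings are listed in the closing section. Values of normalised counts give no interval for a single library.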

Additional observations from a re-analysis of the deposited data

How the results depend on the processing

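The number of genes that differed between major and minor clones depended on the setting. Against 188, it was 85 with no filter on low values, 89 with limma without a trend, 48 with the signed-rank test, 366 with quantile normalization and 601 with libraries brought to an equal sum without Rn18s. It was 1 with the Rn18s level and 7 with the fibroblast level as a covariate, 33 in the male mouse alone and 0 in the female mouse alone by limma, where 1225 genes had an unadjusted p under 0.05. Without the replicate block, that is, ignoring the pairing of clones by tumour, it was 1. With a pseudocount of 0.1 or 5, a mean of at least 50 or limma's robust option it was 173 to 230.

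Leaving out 1 tumour at a time gave 25 to 863 genes. The count fell by over 1.5 times without male tumours 20, 22, 23, 25, 26, 27, 28 and 29 and female tumours 22 (42 genes), 24, 26 and 30, and grew by over 1.5 times without male tumour 31 and female tumours 19, 23, 27 and 29. With the Rn18s level as a covariate the same omissions gave 0 to 3 genes. The log2 difference in the Rn18s share stayed between -1.59 and -1.35, but was -1.09 in the female mouse alone (permutation test, p = 0.0803).

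Of the 60 named genes that were called, 58 of the 59 that could be fitted lost their call with the Rn18s term, 56 with the fibroblast term, 60 in the female and 55 in the male mouse alone. Fewer tumours entered the last 2 fits, and for the others the cause was not tested. Directions turned for Rmrp with the Rn18s term (0.090), for Apc in the female mouse (-0.087), for Lgr5 with the Rn18s term (-0.25), the equal sum (-0.041) and the fibroblast term (-0.21), and for Anxa1 with the Rn18s term (-0.14), quantile normalization (-0.062), the equal sum (-0.053), the fibroblast term (-0.071) and the female mouse alone (-0.17). None of these turned values was called. List medians that changed sign under at least 1 setting included those of crypt stem cells, Notch, DNA replication, fibroblasts and endothelium. Those of goblet, enteroendocrine and enterocyte genes did not under any of the 6 settings run on lists. The 5 tumours with more Rn18s in the major clone were taken as a setting after the data were seen. Library depth is hidden by the authors' scaling.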
